A study of Mus musculus with 6 samples.

Results

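Cholesterol is built from acetyl-CoA in a chain of enzymes that first makes mevalonate and isoprenoid units, then squalene, and finally closes and trims the sterol rings. The chain is controlled mainly by SREBP2 (*Srebf2*), a membrane-bound transcription factor that SCAP carries out of the endoplasmic reticulum when sterols are scarce and that the INSIG proteins hold back when sterols are plentiful. Surplus cholesterol is stored as esters, made in cells by the SOAT enzymes and in plasma by LCAT, and in hepatocytes it can leave as bile acids.

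The 30 genes described here cover this chain, its sterol sensors, cholesterol uptake and transport, and esterification. They were picked out by gene symbol, and all 30 were found among the 55254 genes of the table. Whole liver of wild-type (WT) mice was sequenced in 3 libraries from a normal diet (ND) and 3 from CDA-HFD fed for 7 weeks, labelled as biological replicates. This is a fat-rich diet with defined amino acids and no choline that leads to steatosis and, with longer feeding, to fibrosis. Per the study's methods, male mice received this diet, as young adults, and the mice bought as wild type were C57BL/6J. Strain and sex are not in the labels of these samples, and no transgene or drug was named for them. Values are TPM, transcript levels corrected for length and scaled to 1000000 per library, so levels of different genes can be set side by side.

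The ND libraries held 13957519 to 15096491 recovered reads, the CDA-HFD libraries 16560805 to 18620253. The hepatocyte markers *Alb*, *Ttr*, *Apoa1*, *Hnf4a*, *Tat* and *Cps1* were abundant in every library. Their sum was 28813 to 29578 TPM on ND and 23434 to 25098 TPM on CDA-HFD. None of the 6 was called, but at a limma adjusted p below 0.05 alone 3 were lower and none was higher. The lower ones were *Alb*, *Ttr* and *Hnf4a* (log2 fold changes of −0.30, −0.71 and −0.45). Macrophage markers (*Adgre1*, *Cd68*, *Csf1r*, *Lyz2*, *Trem2*, *Gpnmb*) rose in 6 of 6 cases, from a sum of 280 to 319 TPM in ND to 4131 to 4494 TPM on CDA-HFD. Stellate cell and myofibroblast markers rose in 5 of 6 cases (sum of 61.5 to 65.3 against 801 to 892 TPM). On CDA-HFD most of that sum was *Col1a1*, *Col1a2* and *Col3a1*, and *Lrat* was not called (means of 17.7 and 35.6 TPM). Cholangiocyte markers rose in 5 of 5 cases (77.0 to 88.3 against 1113 to 1226 TPM). Nearly all of their sum was *Spp1* (means of 73.4 and 1043 TPM), which the paper counts among markers of scar-associated macrophages. T cell markers rose in 4 of 4 cases (5.26 to 6.91 against 24.9 to 30.9 TPM). Of 5 endothelial markers 1 rose and 1 fell (106 to 115 against 110 to 130 TPM). Of 5 pancreatic markers *Cpa1* and *Pnlip* were listed at 0 throughout and the 1 tested was not called (sum of 27.4 to 33.1 against 13.6 to 17.5 TPM). In whole tissue, fewer cells of a type and less RNA per cell cannot be told apart.

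The comparison asked which members differed after 7 weeks of CDA-HFD. Rises and falls, here also named calls, are differences on the log2(TPM + 1) scale of 1 or more in either direction, at a limma adjusted p below 0.05. Only genes averaging 1 TPM or more over the libraries were tested, which left 28 of the 30 members and not *Ch25h* and *Npc1l1*. Among the 28, *Soat1*, *Nceh1* and *Sqle* rose, and *Insig1*, *Tm7sf2*, *Sc5d* and *Stard4* fell. The 3 rises are 10.7% of the tested members, against 21.1% of all genes tested, and the 4 falls are 14.3%, against 3.79% of all genes. Without the fold limit, 7 members were higher (25.0%, against 51.6% of all genes) and 12 were lower (42.9%, against 14.4%). Groups did not overlap for 7 members that were higher in CDA-HFD (25.0%, against 54.9% of all genes) and 13 that were lower (46.4%, against 16.1%). The median log2 fold change of the members was 0.01, beside 0.32 over the 14730 genes tested.

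The scale matters for small changes. The median over all genes moved from 0.32 on the TPM scale to −0.04 with median-of-ratios scaling and −0.11 after quantile normalization, and rises made up 84.8%, 69.0% and 58.9% of all calls, respectively. Among the 28 tested members, median-of-ratios scaling gave 2 rises and 7 falls, beside 2300 and 1033 of the 14730 genes tested. Quantile normalization gave 2 and 8, beside 1718 and 1201 of all genes. On both scales *Sqle* was no longer called, while *Soat1* and *Nceh1* were still called as rises and *Insig1*, *Tm7sf2*, *Sc5d* and *Stard4* as falls.

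**Figure D1:**
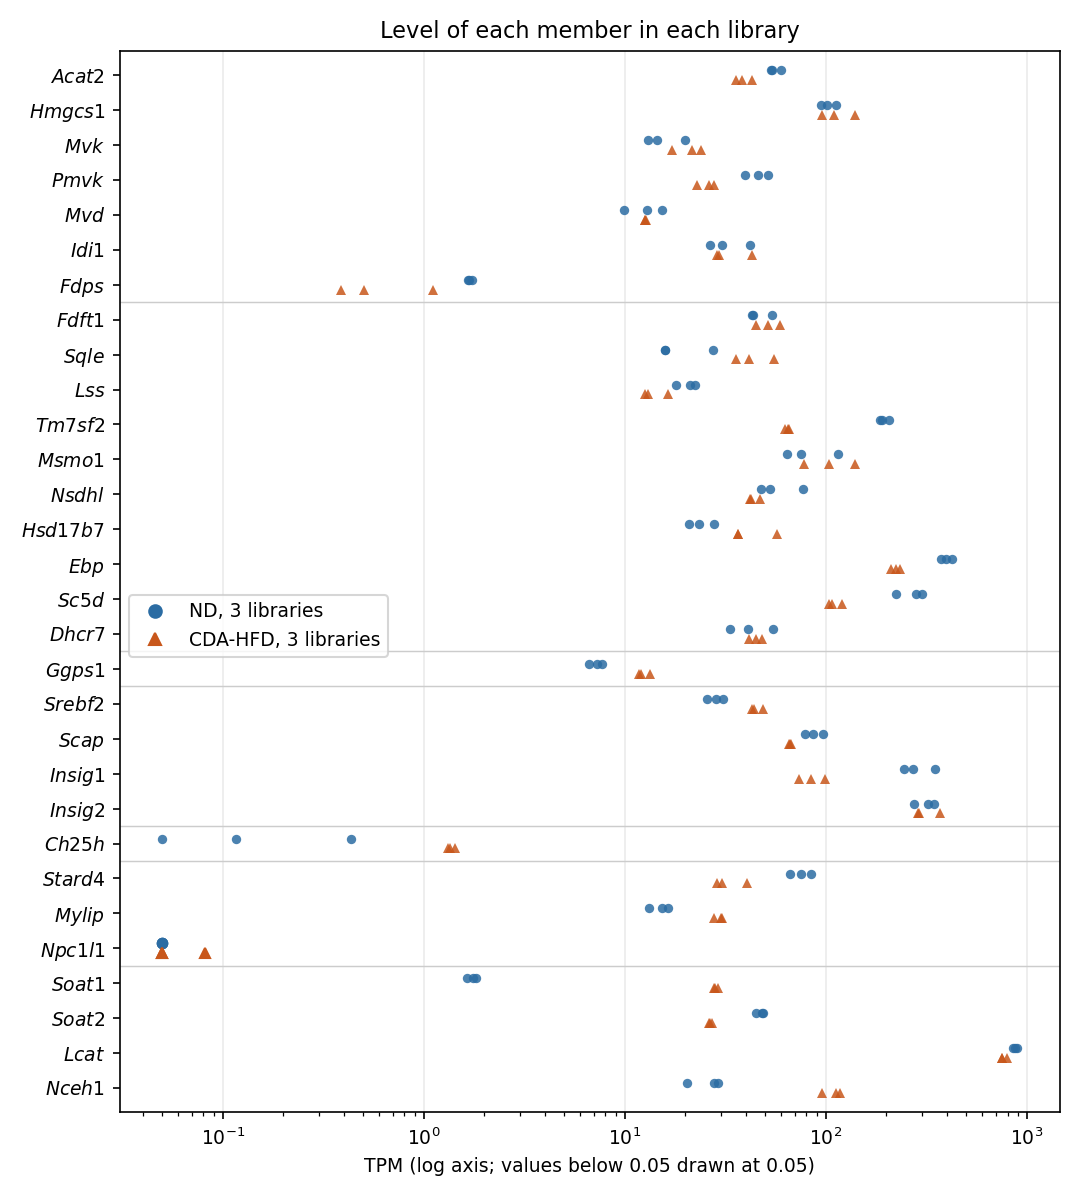
Level in TPM (log axis) of each member in the 3 ND libraries (circles) and the 3 CDA-HFD libraries (triangles), ordered by role from the first enzymes at the top to esterification at the bottom; values under 0.05 TPM are drawn at 0.05. The groups of *Soat1* (1.64 to 1.83 against 27.8 to 29.1 TPM) and *Tm7sf2* (185 to 206 against 62.6 to 65.2 TPM) lie far apart, whereas those of *Hmgcs1* and *Insig2* overlap.

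None of the 7 first enzymes, from acetyl-CoA units to farnesyl diphosphate, was called, 3 were lower without the fold limit, and their median log2 fold change was 0.01. *Hmgcs1*, the HMG-CoA synthase at the entry to mevalonate, measured 101, 112 and 94.8 TPM in the ND libraries and 140, 95.2 and 110 TPM in the CDA-HFD libraries. The groups overlapped, with the highest value in a CDA-HFD library (log2 fold change 0.15 ± 0.14 SE, adjusted p = 0.374). *Idi1*, the isomerase of the isoprenoid unit, spanned 26.6 to 42.1 TPM on ND and 28.7 to 42.7 TPM on CDA-HFD. These ranges were nearly the same (0.03 ± 0.20, adjusted p = 0.917). Of the 75-base windows of *Idi1* transcripts 23.6% also occur in transcripts of other genes, so its level is uncertain. The mevalonate kinase gene *Mvk* averaged 15.8 ± 3.63 TPM (SD, n = 3) in ND and 20.8 ± 3.38 TPM on CDA-HFD, with overlapping groups (0.39 ± 0.17, adjusted p = 0.0767). *Mvd*, the decarboxylase that yields the isoprenoid unit, averaged 12.7 ± 2.75 and 12.6 ± 0.0429 TPM (0.01 ± 0.14).

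The 3 lower genes of this stretch were *Pmvk*, *Acat2* and *Fdps*, all without overlap between the groups. *Pmvk*, the second kinase acting on mevalonate, measured 46.0, 51.7 and 39.4 TPM on ND and 27.8, 22.7 and 26.1 TPM on CDA-HFD (−0.81 ± 0.12, adjusted p = 0.000442). It passed the fold limit with median-of-ratios scaling (−1.20) and after quantile normalization (−1.15). *Acat2*, the cytosolic thiolase (a name that the esterification enzyme of *Soat2* also goes by), averaged 55.7 ± 3.64 TPM on ND and 38.9 ± 3.69 TPM on CDA-HFD (−0.51 ± 0.09, adjusted p = 0.00119). Of its 75-base transcript windows 33.9% also occur in transcripts of *Acat3* or of its neighbour *Tcp1*, so its level is uncertain; *Acat3*, the near-identical copy, averaged 194 TPM on ND and 125 TPM on CDA-HFD (−0.63 ± 0.09).

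*Fdps*, the farnesyl diphosphate synthase, stood at only 1.67, 1.65 and 1.73 TPM on ND and 1.11, 0.388 and 0.501 TPM on CDA-HFD (−0.71 ± 0.18, adjusted p = 0.00947). These values come from 15, 16 and 17 reads and from 12, 4 and 6 reads. Of its 1453 exon bases 1124 are shared on the same strand with *Gm43738*, a gene model listed at 0 in all 6 libraries, and 23.5% of its windows recur in other genes, most of them predicted copies. The level of *Fdps* is therefore not comparable with that of its neighbours in the chain. The pooled reads gave a CDA-HFD to ND ratio of 0.394, with an exact 95% counting interval of 0.226 to 0.665 that covers counting error only. *Ggps1*, which extends farnesyl to geranylgeranyl diphosphate on the branch to protein prenylation, went from 7.24, 6.60 and 7.71 TPM to 13.3, 12.1 and 11.7 TPM, without overlap but under the fold limit (0.71 ± 0.10, adjusted p = 0.000351). Its difference shrank to 0.10 (adjusted p = 0.378) with quantile normalization.

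The squalene and sterol enzymes went in both directions. Of 10 tested, *Sqle* rose, *Tm7sf2* and *Sc5d* fell, and 7 were not called. *Sqle*, the squalene epoxidase and a slow step of the chain (chromosome 15, 59315077 to 59331192; gene spans here are those of GENCODE on GRCm38), measured 15.8, 27.6 and 15.8 TPM on ND and 55.2, 35.6 and 41.5 TPM on CDA-HFD. Every CDA-HFD library lay above every ND library, and the mean was 2.24 times as high (1.15 ± 0.23, adjusted p = 0.00295). The call ended without CDA-HFD replicate 1 (0.98), with median-of-ratios scaling (0.76) and after quantile normalization (0.79), at adjusted p between 0.0117 and 0.0205. *Hsd17b7*, a ketosteroid reductase of the demethylation steps, was also above its ND range in every CDA-HFD library, with 23.3, 27.6 and 20.9 TPM against 57.1, 36.4 and 36.4 TPM (0.81 ± 0.18, adjusted p = 0.00508). Its difference was 0.42 (adjusted p = 0.0606) with median-of-ratios scaling and 0.46 (adjusted p = 0.0547) after quantile normalization.

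*Tm7sf2*, a sterol reductase that acts right after lanosterol is first demethylated (chromosome 19, 6062821 to 6068373), fell from 185, 206 and 191 TPM to 62.6, 64.9 and 65.2 TPM (−1.58 ± 0.06, adjusted p = 3.26e-07). The CDA-HFD libraries were nearly equal, and their mean was 0.331 of the ND mean. It shares 14 exon bases on the same strand with *Vps51*, whose means were 15.4 and 21.7 TPM. Of the 75-base windows of *Tm7sf2* transcripts 8.83% also occur in *Vps51* transcripts. *Sc5d*, the desaturase of the last steps (chromosome 9, 42251595 to 42264256), fell from 280, 301 and 223 TPM to 121, 107 and 104 TPM (−1.26 ± 0.11, adjusted p = 3.21e-05). *Ebp*, the sterol isomerase just before it, was the most abundant enzyme of the chain among the members and was lower without reaching the fold limit, at 373, 424 and 397 TPM against 234, 210 and 224 TPM (−0.84 ± 0.07, adjusted p = 1.65e-05). With median-of-ratios scaling it passed (−1.24). *Lss*, which closes the rings to lanosterol, averaged 20.4 ± 2.23 and 13.99 ± 2.11 TPM, without overlap (−0.52 ± 0.13, adjusted p = 0.00674).

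The other 4 sterol enzymes had an adjusted p above 0.05 on the TPM scale, and in 3 of them the groups overlapped. *Fdft1*, the squalene synthase, averaged 46.6 ± 6.24 and 51.8 ± 7.04 TPM (0.15 ± 0.12, adjusted p = 0.321); 774 of its exon bases lie opposite *Ctsb*, which averaged 409 TPM on ND and 989 TPM on CDA-HFD. *Msmo1*, the methyl sterol oxidase, measured 75.3, 115 and 64.0 TPM against 139, 77.6 and 103 TPM, with overlap (0.33 ± 0.26, adjusted p = 0.282). *Nsdhl*, its partner in demethylation, averaged 58.8 ± 15.5 and 43.8 ± 2.86 TPM, with no overlap but an adjusted p of 0.0656 (−0.39 ± 0.16). Its adjusted p was below 0.05, still short of the fold limit, after median-of-ratios scaling (−0.78, adjusted p = 0.00337), quantile normalization (−0.65, adjusted p = 0.00769), removal of the 50 most abundant genes (−0.47, adjusted p = 0.0329) and voom (−0.45, adjusted p = 0.0241), and without ND replicate 3 (−0.53, adjusted p = 0.0236). Without ND replicate 2, its highest library, the difference was −0.19 (adjusted p = 0.113). *Dhcr7*, which makes cholesterol from its immediate precursor, averaged 43.0 ± 10.8 and 44.6 ± 3.26 TPM (0.08 ± 0.16, adjusted p = 0.688). With the first enzymes included, the 17 enzymes summed to 1296 to 1613 TPM on ND and 889 to 1128 TPM on CDA-HFD. The groups of this sum did not overlap, and *Ebp*, *Sc5d* and *Tm7sf2* had most TPM in ND among the 17. The lower sum came from these 3 genes, with means of 398, 268 and 194 TPM on ND and 223, 110 and 64.2 TPM on CDA-HFD. It was not a decrease along the whole chain, and the sum of the 7 first enzymes overlapped (242 to 303 against 213 to 289 TPM). The 4 further sterol enzymes counted below are not in the sum of the 17. Their own sum went the other way, from 498 to 656 TPM on ND to 728 to 843 TPM on CDA-HFD.

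**Figure D2:**
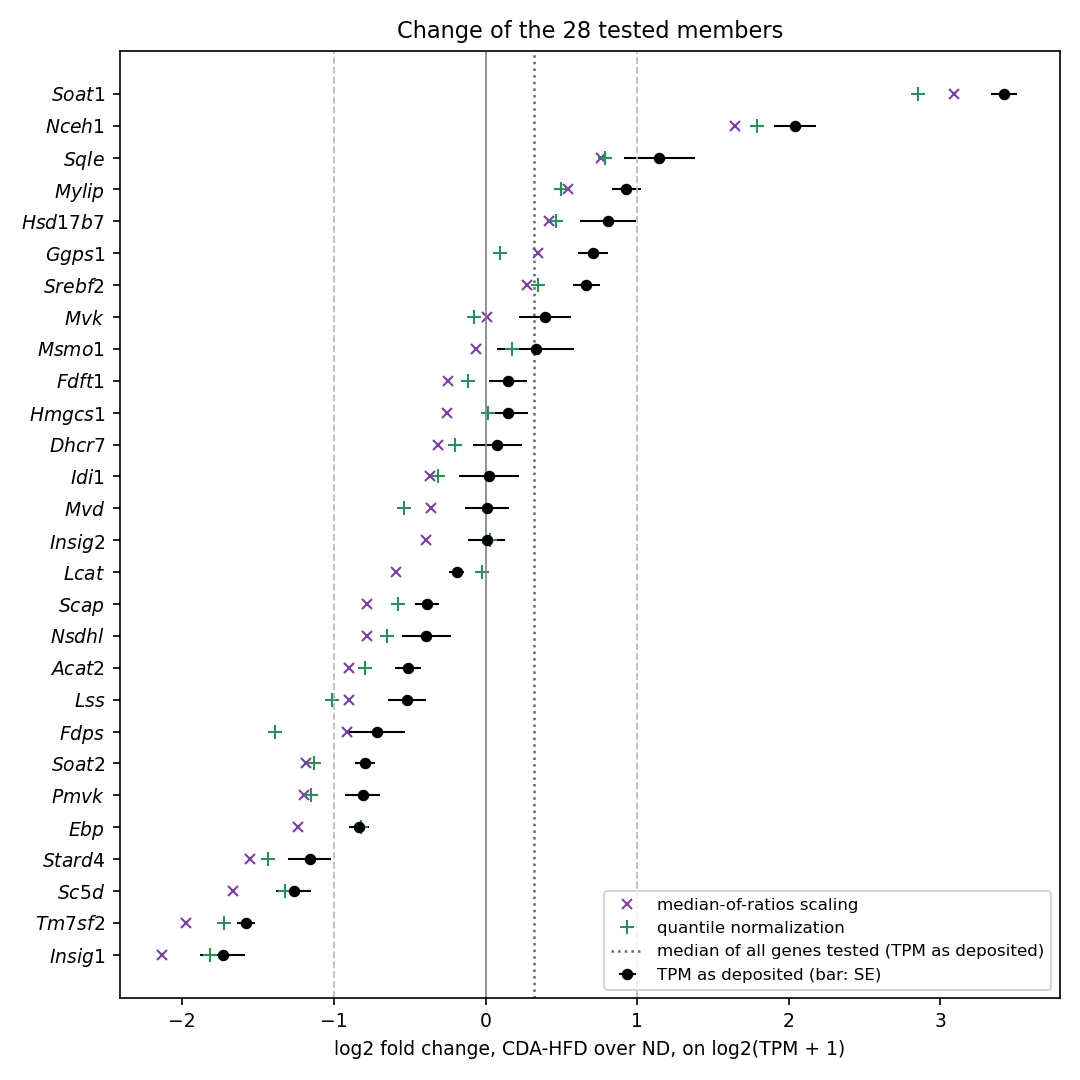
Log2 fold change of CDA-HFD over ND for the 28 tested members, with SE bars on the TPM scale (dots), and after median-of-ratios scaling (crosses) and quantile normalization (plus signs); dashed lines mark the fold limit and the dotted line the median of all genes tested (0.32). *Soat1* (3.42) and *Nceh1* (2.04) stand at the top and *Insig1* (−1.73) at the bottom on all 3 scales.

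The enzymes shared their high library within each diet. In ND, replicate 2 was the highest library for 16 of the 17 enzymes, *Fdps* being the exception, although it was highest for only 33.8% of all genes tested. In CDA-HFD, replicate 1 was the highest for 15 of 17, the exceptions being *Mvk* and *Tm7sf2*, against 45.8% of all genes. Both held for 14 enzymes, while both held for 15.2% of all genes tested. The enzymes' median ratio to the mean of the other 2 libraries was 1.25 in ND replicate 2 and 1.16 in CDA-HFD replicate 1, where the median over all genes was 1.00 and 1.04. The largest was in *Sqle* for ND (1.75) and, leaving aside the few reads of *Fdps*, in *Hsd17b7* for CDA-HFD (1.57). *Srebf2*, *Insig1* and *Stard4* followed the same libraries, with ratios of 1.14 to 1.35 in ND and 1.13 to 1.38 in CDA-HFD, while *Insig2*, *Nceh1* and *Lcat* were highest in other libraries of both diets. The labels give no time of day, feeding state or batch for the libraries.

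**Figure D3:**
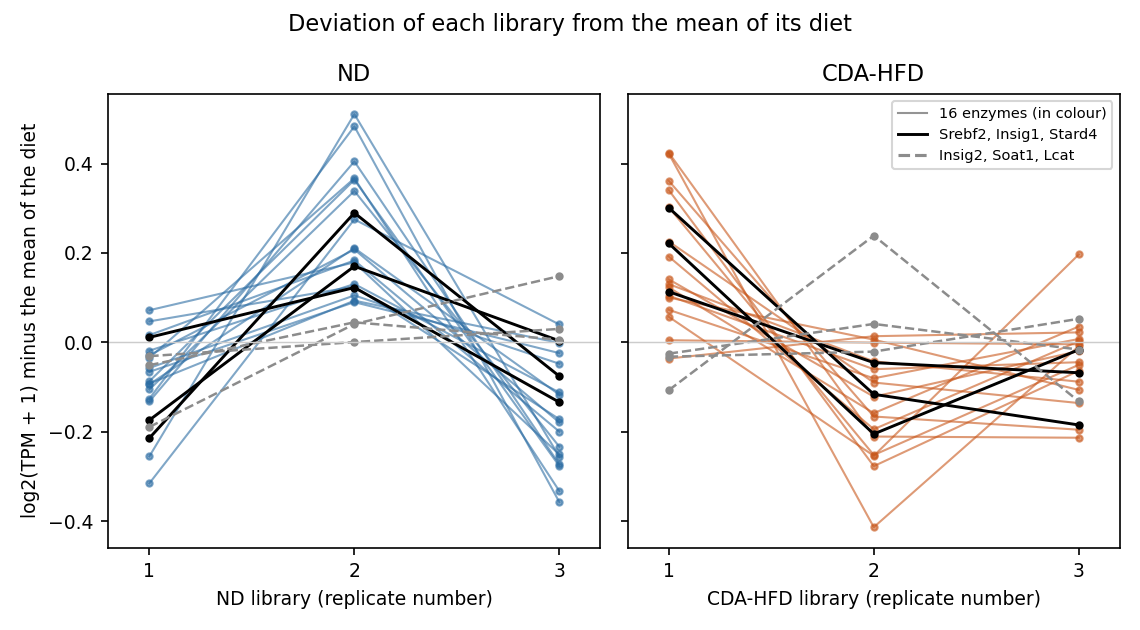
Deviation of log2(TPM + 1) from the mean of the diet in each library, for 16 enzymes (coloured lines, *Fdps* left out), for *Srebf2*, *Insig1* and *Stard4* (black) and for *Insig2*, *Soat1* and *Lcat* (dashed). Lines join the values of a gene and replicate numbers have no order; ND replicate 2 and CDA-HFD replicate 1 are the high libraries of their diets for nearly every enzyme.

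Among the sterol sensors 1 of 4 genes, *Insig1*, fell and none rose. *Insig1*, which holds the SCAP and SREBP complex in the endoplasmic reticulum and is itself a known SREBP target (chromosome 5, 28071363 to 28078662), fell from 245, 348 and 270 TPM to 99.2, 73.6 and 84.0 TPM. The highest CDA-HFD library was far below the lowest ND library, and the CDA-HFD mean was 0.297 of the ND mean (−1.73 ± 0.15, adjusted p = 2.24e-05). Its paralog *Insig2*, which in liver is known to be less dependent on sterols, measured 273, 320 and 345 TPM on ND and 290, 369 and 285 TPM on CDA-HFD, with overlapping groups (0.01 ± 0.12, adjusted p = 0.957). *Insig1* made up 47.3%, 52.1% and 43.9% of the summed *Insig1* and *Insig2* TPM on ND and 25.5%, 16.6% and 22.7% in CDA-HFD, and that sum averaged 601 ± 76.2 and 401 ± 38.0 TPM.

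*Srebf2* went from 28.3, 30.6 and 25.5 TPM to 48.8, 43.6 and 42.9 TPM, without overlap, a difference that stayed under the fold limit (0.66 ± 0.09, adjusted p = 0.000316). It kept its direction with median-of-ratios scaling (0.27, adjusted p = 0.0189) and quantile normalization (0.35, adjusted p = 0.00648). *Scap*, the escort protein, was lower, at 86.3, 96.2 and 78.5 TPM against 66.2, 65.6 and 66.8 TPM (−0.38 ± 0.08, adjusted p = 0.00337). These are transcript levels; how much SREBP2 was processed was not measured.

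*Ch25h*, which hydroxylates cholesterol to an oxysterol and is known as an interferon-induced gene of macrophages, had 1, 4 and 0 reads in ND and 14, 14 and 15 reads in CDA-HFD, or 0.117, 0.432 and 0 TPM against 1.35, 1.42 and 1.31 TPM. The pooled ratio was 7.39, with an exact 95% counting interval of 2.93 to 23.9. Its mean was under the minimum for the test; without the filter its log2 fold change was 1.01 (adjusted p = 0.0018).

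In uptake and transport, *Stard4* fell and *Mylip* was higher under the fold limit. *Stard4*, a soluble carrier that moves cholesterol between membranes and a known SREBP2 target (chromosome 18, 33199355 to 33213862), measured 66.0, 84.0 and 74.8 TPM on ND and 40.7, 30.2 and 28.8 TPM on CDA-HFD (−1.16 ± 0.14, adjusted p = 0.000179). *Mylip*, a ubiquitin ligase that marks lipoprotein receptors for degradation and is induced by the oxysterol receptor LXR, measured 13.2, 15.3 and 16.4 TPM against 30.4, 27.7 and 30.1 TPM (0.93 ± 0.10, adjusted p = 6.71e-05). It was 1.96 times as high on the TPM scale, and the difference was 0.55 with median-of-ratios scaling and 0.50 after quantile normalization. *Npc1l1*, the sterol importer of the intestine, had no read in any ND library and 1, 1 and 3 reads in CDA-HFD, where 0 reads in an ND library allow up to 0.0995 to 0.109 TPM, so a difference was not detectable at this depth. Of 6 intestinal markers, *Sis*, *Alpi*, *Cdx1* and *Cdx2* were listed at 0 in all 6 libraries, and 1 of the 2 tested rose, *Vil1*, from 0.329 ± 0.122 to 2.49 ± 0.518 TPM. Nearly all of the summed level of the 6 markers, 160 to 194 TPM on ND and 324 to 350 TPM on CDA-HFD, was *Fabp2*, which was not called (179 ± 17.4 and 331 ± 14.5 TPM, 0.89 ± 0.08).

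Esterification showed the widest contrast. *Soat1*, the sterol acyltransferase found in most tissues and prominent in macrophages (chromosome 1, 156424525 to 156474331), rose from 1.64, 1.83 and 1.75 TPM to 27.8, 29.1 and 27.95 TPM (3.42 ± 0.09, adjusted p = 5.44e-08). The CDA-HFD mean was 16.3 times the ND mean, and the 3 libraries of each diet were within a narrow range. *Soat2*, the isozyme of hepatocytes and intestine, went the other way, from 48.4, 44.6 and 48.1 TPM to 27.0, 26.6 and 26.3 TPM, without overlap (−0.80 ± 0.07, adjusted p = 1.89e-05). It passed the fold limit with median-of-ratios scaling (−1.19) and quantile normalization (−1.13). *Soat1* was 3.29%, 3.93% and 3.51% of the summed TPM of the pair in ND and 50.7%, 52.2% and 51.5% in CDA-HFD, while the sum averaged 48.8 ± 2.02 and 54.9 ± 0.759 TPM. With 3 libraries against 3, an exact permutation test of such a share cannot go below p = 0.10, and none was run.

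*Nceh1*, a neutral hydrolase that splits cholesterol esters and is known from macrophages (chromosome 3, 27182965 to 27284608), rose from 20.4, 27.9 and 29.0 TPM to 112, 117 and 95.7 TPM (2.04 ± 0.14, adjusted p = 6.29e-06), 4.2 times the ND mean. *Soat1* and *Nceh1* rose, and *Ch25h* was higher, beside the macrophage markers given above, whose part in the result was not tested, nor was that of the lower hepatocyte marker sum in the falls. *Lcat*, which esterifies cholesterol on plasma lipoproteins and is secreted by hepatocytes, was the most abundant member, at 855, 874 and 892 TPM against 749, 755 and 794 TPM (−0.19 ± 0.05, adjusted p = 0.00908). Its groups did not overlap, but the difference was small and was −0.02 (adjusted p = 0.615) with quantile normalization.

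**Figure D4:**
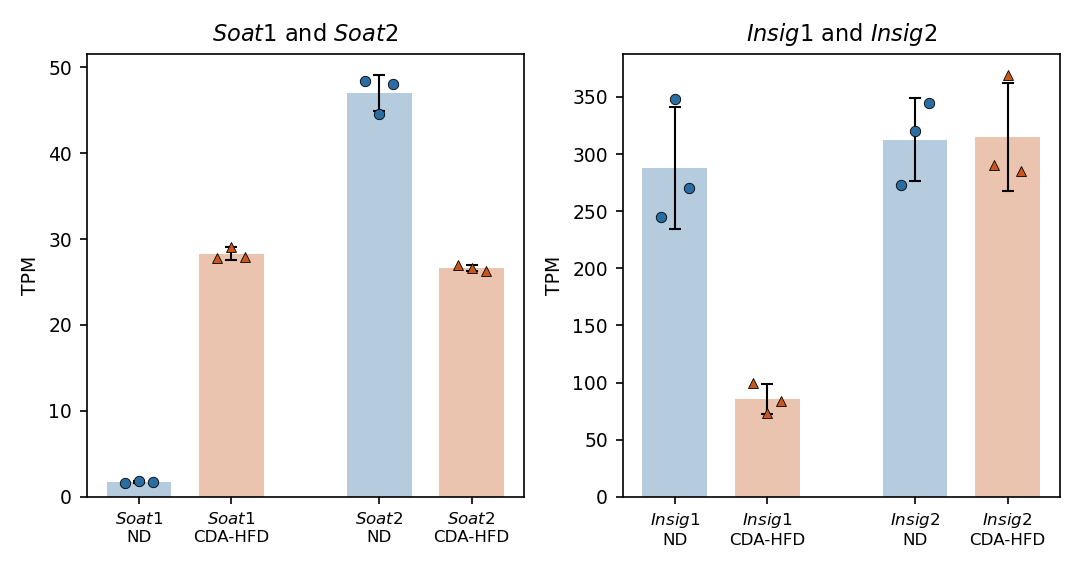
TPM of the paralog pairs *Soat1* and *Soat2* (left) and *Insig1* and *Insig2* (right) by diet; bars are means, error bars SD and points the 3 libraries of each diet, on axes that start at 0. In CDA-HFD *Soat1* and *Soat2* are at about the same level (28.3 and 26.6 TPM), and *Insig1* (85.6 TPM) is well below *Insig2* (315 TPM).

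Genes of neighbouring routes were counted from lists. None of 4 further sterol enzymes was called, but without the fold limit 2 were higher and none was lower. Over all genes tested, 51.6% were higher and 14.4% lower without that limit. None of 10 genes of the isoprenoid branch was called either, while 6 were higher and 3 lower without the fold limit. The most abundant, the prenyltransferase subunit gene *Fnta*, was at 56.3 ± 0.573 and 62.6 ± 4.97 TPM. Of 12 tested genes of bile acid synthesis 2 rose and 2 fell, and without the fold limit 3 were higher and 8 lower. Their median log2 fold change was −0.53, beside 0.32 over all genes tested. The list summed to 6463 to 6528 TPM on ND and 4259 to 4544 TPM on CDA-HFD. *Cyp39a1*, an oxysterol hydroxylase, rose most (2.02 ± 0.10) and *Cyp7b1*, of the alternative route, fell most, from 320 ± 59.4 to 26.8 ± 0.706 TPM (−3.51 ± 0.13); the other rise was *Cyp7a1* (1.77 ± 0.48) and the other fall *Slc27a5* (−1.35 ± 0.07), named here after their values were seen. Of 10 genes of sterol efflux and LXR, 2 rose and 3 fell, and without the fold limit 3 were higher and 4 lower. The rises were led by the macrophage exporter gene *Abcg1* (2.05 ± 0.10). The falls were led by *Srebf1*, the SREBP gene of fatty acid synthesis (−2.67 ± 0.21). Of 6 genes of lysosomal cholesterol export 1 rose, *Npc2*, from 73.4 ± 2.39 to 237 ± 10.4 TPM (1.68 ± 0.06). Without the fold limit 4 of these 6 were higher and none was lower.

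Promoter sequences were examined because SREBP2 is known to act on its targets together with the CCAAT-binding factor NF-Y and often with Sp1. RefSeq promoters of GRCm38.p6, 300 bases from 250 before to 50 after an annotated start, were at hand for 25 members, 4 of which have more than 1. A CCAAT box on either strand was present in 22 of the 25 (88.0%), against 42.6% of the 10383 tested genes with a promoter, and in 13 of 14 enzymes. In 12 members a single promoter held 2 or more. The sterol response element TCACNCCAC was present in 1 of 25, *Hmgcs1* (4% against 1.44% of tested genes). The Sp1 box GGGCGG was present in 19 of 25 (76.0% against 65.8%). Only these letters were searched, so a sterol response element of another form would be missed. *Acat2*, *Scap* and *Ch25h* had no CCAAT box in this window. No promoter was at hand for *Fdps*, *Fdft1*, *Sqle*, *Stard4* and *Soat2*. Members with boxes were found among those that rose, those that fell and those that were not called. A match is a description of the letters, not of binding.

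Stretches before the start of transcription are shown for 3 enzymes that were not called (*Hmgcs1*, *Mvk*, *Msmo1*), 3 members that fell (*Tm7sf2*, *Sc5d*, *Insig1*) and 2 that rose (*Soat1*, *Nceh1*), written 5′ to 3′ on the strand of the gene. Starts are those of RefSeq and can differ from the ends of the GENCODE gene spans given above. Capitals mark CCAAT boxes (read as ATTGG on the other strand) and, in *Hmgcs1*, also the sterol response element.
*Hmgcs1*, chr13:119690151-119690350, plus strand: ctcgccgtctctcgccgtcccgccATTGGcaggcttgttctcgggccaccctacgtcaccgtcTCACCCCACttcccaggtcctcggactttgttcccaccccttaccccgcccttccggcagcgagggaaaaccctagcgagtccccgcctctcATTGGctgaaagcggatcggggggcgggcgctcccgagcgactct
*Mvk*, chr5:114444089-114444268, plus strand: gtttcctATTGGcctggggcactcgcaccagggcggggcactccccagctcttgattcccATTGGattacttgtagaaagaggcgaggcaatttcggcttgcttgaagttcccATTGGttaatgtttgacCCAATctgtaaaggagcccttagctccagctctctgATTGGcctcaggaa
*Msmo1*, chr8:64733579-64733743, minus strand: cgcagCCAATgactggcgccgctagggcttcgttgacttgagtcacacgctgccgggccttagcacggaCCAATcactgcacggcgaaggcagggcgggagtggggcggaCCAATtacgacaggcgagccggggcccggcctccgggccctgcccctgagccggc
*Tm7sf2*, chr19:6067851-6068000, minus strand: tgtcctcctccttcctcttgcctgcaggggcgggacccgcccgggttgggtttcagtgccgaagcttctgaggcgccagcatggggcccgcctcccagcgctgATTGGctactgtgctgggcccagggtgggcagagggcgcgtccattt
*Sc5d*, chr9:42264301-42264450, minus strand: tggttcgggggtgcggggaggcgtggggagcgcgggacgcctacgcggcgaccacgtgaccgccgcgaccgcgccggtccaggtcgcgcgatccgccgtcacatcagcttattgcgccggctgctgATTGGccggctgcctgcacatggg
*Insig1*, chr5:28071162-28071311, plus strand: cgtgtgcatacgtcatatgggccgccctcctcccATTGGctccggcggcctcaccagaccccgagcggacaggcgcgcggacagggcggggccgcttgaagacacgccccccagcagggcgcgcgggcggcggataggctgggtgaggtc
*Soat1*, chr1:156474329-156474478, minus strand: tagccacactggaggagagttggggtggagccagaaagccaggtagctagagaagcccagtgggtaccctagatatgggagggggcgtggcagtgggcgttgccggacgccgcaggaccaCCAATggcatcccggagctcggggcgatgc
*Nceh1*, chr3:27182854-27183003, plus strand: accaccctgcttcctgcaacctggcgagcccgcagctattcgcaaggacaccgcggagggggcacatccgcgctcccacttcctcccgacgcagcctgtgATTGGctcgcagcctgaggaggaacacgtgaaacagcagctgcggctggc
*Mvk* holds 5 boxes in the stretch shown and *Msmo1* 3, whereas *Tm7sf2*, *Sc5d*, *Insig1*, *Soat1* and *Nceh1* hold 1 each. In *Hmgcs1* the sterol response element begins at −137 from the start, between boxes at −176 and −45.

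**Figure D5:**
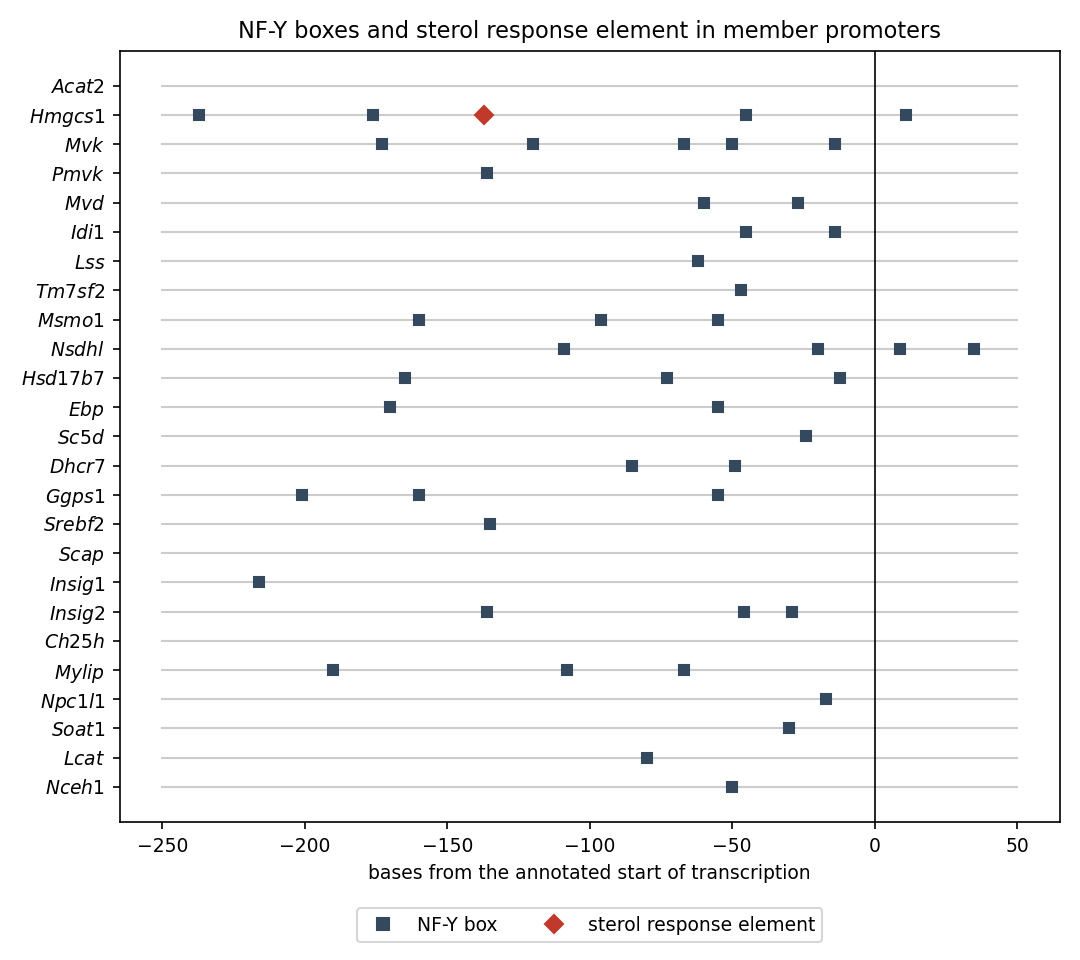
Position of NF-Y (CCAAT) boxes (squares) and of the sterol response element (diamond) along the promoters of 25 members, in bases from the annotated start; boxes of all promoters of a gene are drawn on its line. Boxes lie on 22 of the 25 lines, mostly before the start, and the only match to the searched sterol response element is on that of *Hmgcs1*.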

How the data were processed

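Liver RNA of 3 ND and 3 CDA-HFD samples was sequenced in bulk. The labels call the libraries biological replicates; the extraction text also speaks of sorted cells, but the source is liver. The authors deposited TPM per gene; the submitters' processing notes name Trimmomatic 0.39.0, HISAT2 2.2.1, featureCounts 2.0.1 and the GRCm38 build. The strand setting and annotation release are not given in the sources used here.

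Values were log2(TPM + 1). limma 3.58.1 (R 4.3.3) was fitted to the 14730 genes averaging 1 TPM or more. The model held diet alone, variances were moderated by eBayes with its trend option, and p-values were adjusted over all these genes by the Benjamini-Hochberg method. Fold changes on this scale understate those of low genes. Read numbers were recovered from TPM and GENCODE basic exon lengths, with 98.4% to 98.5% of values whole within 0.01 reads; 53149 of 55254 genes could be matched. Exact counting intervals cover counting error only. The fit was tested on simulated data. Alternatives changed the pseudocount, filter, scaling, variance model, fold limit, replicate block and libraries used; voom on the recovered reads was chosen after seeing the data. All 30 members are named. From each further list the largest rise and fall are named, or, with no call, the most abundant gene; 1 gene that this rule names is not reported here. Members and lists were chosen with earlier results of these data known.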

Additional observations from a re-analysis of the deposited data

How the results depend on the processing

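With 3 libraries a diet, small differences depend on scale. Among members, 3 rose and 4 fell, and at adjusted p alone 7 were higher and 12 lower. The shares over all genes are given above. A limit of 1.5-fold gave 7 and 8. All genes were not counted at that limit, so these 2 counts cannot be set against a share and are not read further. The scalings gave 2 rises and 7 falls (median of ratios, 2300 and 1033 of 14730 genes) or 2 and 8 (quantile, 1718 and 1201). The members' median of 0.01 was −0.38 with median-of-ratios scaling and −0.26 after quantile normalization. With 1 library left out, 2 to 3 members rose, 4 fell, and the median of the members was −0.12 to 0.09. Of the 14543 to 14879 genes tested in these fits, 2912 to 3239 rose and 540 to 568 fell. *Sqle* was the only call lost, with both scalings and without CDA-HFD replicate 1. *Fdps* passed the fold limit with a pseudocount of 0.1 (−1.34), quantile normalization (−1.39) and voom (−1.46), and *Lss* with quantile normalization (−1.01).

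The alternative variance models, filters, replicate block and fold limits leave a member's log2 fold change as it is, so no sign could change there. In 8 members, none of them called, 27 of 531 values over all alternatives changed sign. With median-of-ratios scaling these were *Hmgcs1* (−0.25), *Mvd* (−0.36), *Idi1* (−0.36), *Fdft1* (−0.25), *Msmo1* (−0.066), *Dhcr7* (−0.31) and *Insig2* (−0.39, adjusted p = 0.0337). With quantile normalization they were *Mvk* (−0.075), *Mvd* (−0.54, adjusted p = 0.0122), *Idi1* (−0.32), *Fdft1* (−0.12) and *Dhcr7* (−0.20). Without the 50 most abundant genes they were *Mvd* (−0.067), *Idi1* (−0.055), *Dhcr7* (−0.0018) and *Insig2* (−0.074), and with voom *Mvd* (−0.043), *Idi1* (−0.023) and *Insig2* (−0.042). Over the fits that left out 1 library, those that changed sign ranged as follows: *Dhcr7* (−0.088 to 0.26), *Hmgcs1* (−0.0059 to 0.27), *Idi1* (−0.16 to 0.21), *Insig2* (−0.11 to 0.082), *Mvd* (−0.15 to 0.15). The cause was not tested.

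Deviations of same-numbered libraries correlated across genes at 0.09, 0.04 and 0.09, so the numbers were not taken to pair the libraries, although each library correlated best with its own number. With the replicate block 3 members rose and 4 fell, and no call changed; over all genes 3128 rose and 559 fell, against 3115 and 558 without it.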
